A study of Mus musculus with 27 samples.

Results

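The 10 genes of antimicrobial defence in the colonic lining followed here were chosen by name as a functional group: Lcn2, Reg3b, Reg3g, Nos2, Duox2, Duoxa2, Retnlb, Ang4, Pigr and Lypd8. They are 10 of 35975 annotated genes with a transcript in the data, and all 10 passed the filter on low counts in every comparison. Poly(A) RNA sequencing covered whole pieces of colon in 27 libraries from 14 mice of mixed background. Deficient mice were Villin1-Cre; Foxa1lox/lox; Foxa2lox/lox, with the recombinase driven in intestinal epithelium, so that the forkhead transcription factors Foxa1 and Foxa2 are lost from the epithelium. This group gave 7 proximal and 7 distal libraries from mice of 9 to 13 months, 2 of them labelled female. The control group gave 7 proximal and 6 distal libraries from mice of 9 to 18 months, all labelled male. Of the control mice, 5 were Foxa1lox/lox; Foxa2lox/lox without Cre, 1 was Villin1-Cre; Foxa1lox/wt; Foxa2lox/wt and 1 was Villin1-Cre; Foxa1lox/lox; Foxa2lox/wt. Each replicate was a separate mouse, and 13 mice gave both segments.

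The colonic epithelium holds bacteria away from its surface with secreted proteins, oxidants and transported antibody. Reg3 lectins, angiogenin-type ribonucleases and resistin-like proteins attack bacterial membranes, lipocalin 2 keeps iron from bacteria, and dual oxidases make hydrogen peroxide at the cell surface. Several of these genes are known to be induced by interleukin 17, interleukin 22 and microbial contact, and some are also made by cells outside the epithelium, such as neutrophils and macrophages.

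Libraries held 18472867 to 56744113 estimated counts. Foxa1 was at 7.21 to 14.5 CPM (counts scaled to library size) in the 14 deficient libraries. It was at 42.4 to 80.8 CPM in the control libraries except those of control replicate 6, which had 13.9 CPM in the proximal and 7.60 CPM in the distal library and whose label gives Cre with both Foxa1 alleles floxed. Foxa2 was at 0.326 to 1.75 CPM in deficient mice, against 6.05 to 30.4 CPM in control libraries. Summed over 4 Y-linked genes, deficient replicate 3, labelled male, had 2.98 CPM in its proximal and 3.59 CPM in its distal library, within the 2.61 to 6.27 CPM of the libraries labelled female. The 21 other libraries labelled male had at least 140.7 CPM. Epithelial markers were present in every library, with summed levels of 12800 to 22340 CPM in deficient mice, against 11740 to 25960 CPM in control libraries. In whole tissue, fewer cells of a type and less RNA per cell cannot be told apart.

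In proximal colon, 3 of the 10 genes passed the edgeR quasi-likelihood test at an adjusted p under 0.05. Lcn2 and Ang4 were higher and Pigr was lower in deficient mice. In distal colon 1 of the 10 passed, Lcn2, again higher. The background was 5.52% of genes called higher and 6.17% called lower in proximal colon, and 2.7% higher and 3.37% lower in distal colon. The median log2 fold change (deficient over control) of the 10 genes was -0.46 in proximal and -0.28 in distal colon, beside 0.01 over all genes tested in each segment. With DESeq2 the counts were 5 and 4 of the 10, as Duox2 and Duoxa2 in proximal and Reg3b, Nos2 and Retnlb in distal colon also passed. The background above is that of edgeR, and DESeq2 also called more of all genes in distal colon (numbers given below). The share of all genes called with DESeq2 in proximal colon is not given here, so the 5 of 10 has no background beside it.

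**Figure D1:**
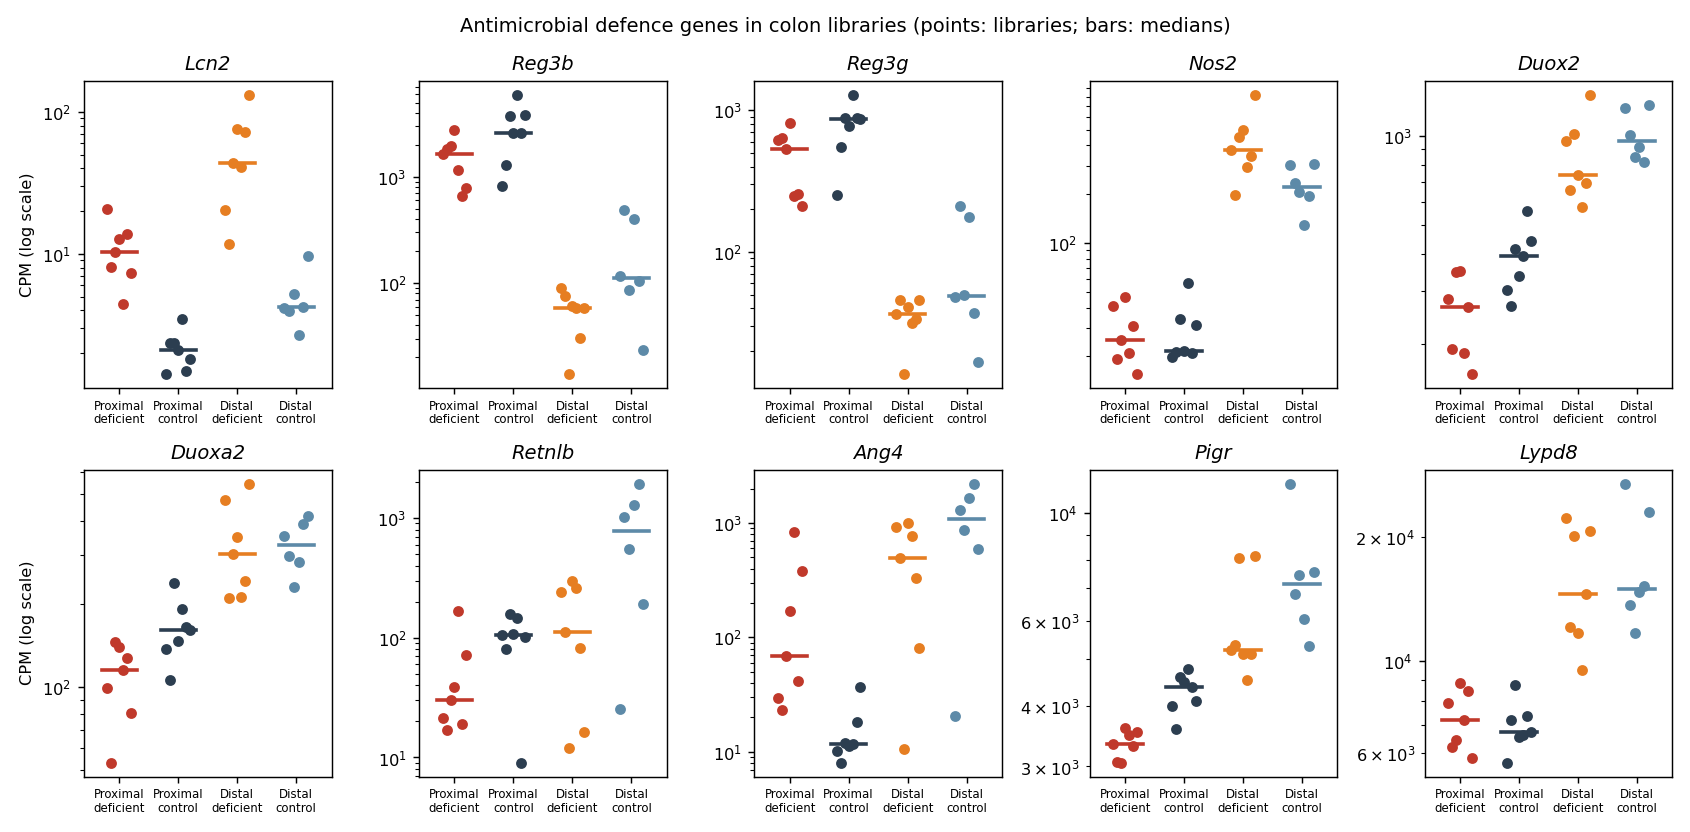
CPM (log scale) of the 10 genes in every library of the 4 groups, with points for libraries and bars for medians. Lcn2 has deficient libraries above all control libraries in both segments, while the groups of the other 9 genes overlap in both.

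Lcn2 encodes lipocalin 2, a secreted protein that binds the siderophores with which bacteria collect iron. It lies on chromosome 2 (ENSMUSG00000026822.14, chr2:32384633-32388252, minus strand, GRCm38). In proximal colon it was at 4.405 to 20.7 CPM (median 10.3) in deficient mice and at 1.43 to 3.49 CPM (median 2.10) in control mice. In distal colon it was at 11.8 to 131.2 CPM (median 43.5) in deficient mice and at 2.69 to 9.70 CPM (median 4.198) in control mice. The lowest deficient library stood above the highest control library in both segments, as did no other of the 10 genes. Groups without overlap were found for 4.81% of the genes tested in proximal and 3.4% in distal colon. The log2 fold change was 2.37 (SE 0.30, adjusted p 5.27e-05), or 5.18-fold, in proximal colon. In distal colon it was 3.51 (SE 0.52, adjusted p 0.000854), or 11.4-fold. The distal change was not shown to differ from the proximal one (difference in log2 1.05, SE 0.62, adjusted p 0.548). Lcn2 passed in all 24 alternative proximal analyses, at log2 2.14 to 2.70, and in all 23 distal ones, at 2.97 to 3.82, including those without the mice labelled female and deficient replicate 3.

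The Lcn2 promoter is printed because Lcn2 was the member called in both segments. It runs from 250 bases before to 50 bases after the RefSeq start (GRCm38.p6, chr2:32387690-32387989, minus strand), and capitals mark a match to a CDX core.
Lcn2: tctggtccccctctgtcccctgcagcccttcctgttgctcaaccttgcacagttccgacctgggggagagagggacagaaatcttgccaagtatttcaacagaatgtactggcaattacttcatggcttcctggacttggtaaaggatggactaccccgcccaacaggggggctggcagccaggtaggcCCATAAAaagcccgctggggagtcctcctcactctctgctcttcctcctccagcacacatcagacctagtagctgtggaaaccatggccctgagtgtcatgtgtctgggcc
Each promoter was searched on both strands for a forkhead site (TGTTTAC), a forkhead variant (TGTTTGC), an NF-kB core (GGNNNTTCC), a STAT site (TTCNNNGAA), an AP-1 site (TGANTCA) and a CDX core (TTTATGG). The capitals lie at -61 to -55 with the start at 0, on the minus strand of the gene. Of 32851 mouse promoters of this length, 2.75% hold that CDX core. The forkhead site, in the letters TGTTTAC, was found in no member promoter searched. Forms of a forkhead site beyond it and the variant were not searched for. The forkhead variant was found in a Lypd8 window that is not printed (chr11:58380396-58380695, plus strand), at -104 to -98. Of all promoters, 3.65% hold the forkhead site and 5.07% the variant.

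Neutrophils also carry Lcn2. Of 12 neutrophil markers, 6 were tested in distal colon, of which 3 were higher (S100a8, S100a9 and Cxcr2) and 0 lower, with a list median of 1.67. S100a8, a calcium-binding protein abundant in neutrophils, was at 4.799 to 113.9 CPM (median 34.3) in distal deficient libraries, against 1.05 to 16.5 CPM (median 2.67) in distal control libraries. Its log2 fold change was 3.14 (SE 0.78, adjusted p 0.0256), and its partner S100a9 had 2.52 (SE 0.62, adjusted p 0.0243). The chemokine receptor Cxcr2 had 1.38 (SE 0.38, adjusted p 0.0451). Sums over the 12 markers overlapped, at 173.1 to 685.7 CPM in distal deficient libraries, against 129.0 to 1006 CPM in distal control libraries. That sum was mostly Ly6g, at 157.5 to 507.2 CPM in distal deficient libraries, against 124.3 to 969.8 CPM in distal control libraries (log2 fold change -0.17, SE 0.49, adjusted p 0.895). Ngp was at 0 in every distal deficient library and Elane at 0 in every distal control library.

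In proximal colon S100a8 was at 0.0250 to 0.256 CPM in deficient mice, against 0.0421 to 0.611 CPM in control libraries. The 12 markers summed to 6.12 to 8.07 CPM in proximal deficient libraries, against 2.52 to 6.76 CPM in proximal control libraries, and 7 of the 12 were below 1 CPM in every deficient library and 8 in every control library. Of these, 5 were tested and all 5 had a log2 fold change above 0, with a list median of 0.39. The 1 that passed was Ly6g, higher at 0.675 to 3.501 CPM in proximal deficient libraries, against 0.0910 to 1.74 CPM in proximal control libraries (log2 fold change 2.26, SE 0.64, adjusted p 0.0280).

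Across distal deficient libraries, Lcn2 and S100a8 correlated on the log2 scale (Pearson r = 0.972, n = 7, two-sided exact permutation adjusted p = 0.00952 over 12 relations; Spearman rho = 0.893, exact permutation adjusted p = 0.0738). Without the 2 libraries farthest from the median of Lcn2, r was 0.899. In proximal deficient libraries r was -0.427 (n = 7, exact permutation adjusted p = 0.339; rho = -0.464, exact permutation adjusted p = 0.33), and in proximal control libraries it was 0.857 (n = 7, exact permutation adjusted p = 0.0214; rho = 0.786, exact permutation adjusted p = 0.115). The proximal control relation rested on 2 libraries, since r was 0.52 without them. In distal control libraries r was 0.897 (n = 6, exact permutation adjusted p = 0.0518; rho = 0.543, exact permutation adjusted p = 0.33) and -0.201 without the 2 farthest. The part of neutrophils in the Lcn2 difference of either segment was not tested.

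**Figure D2:**
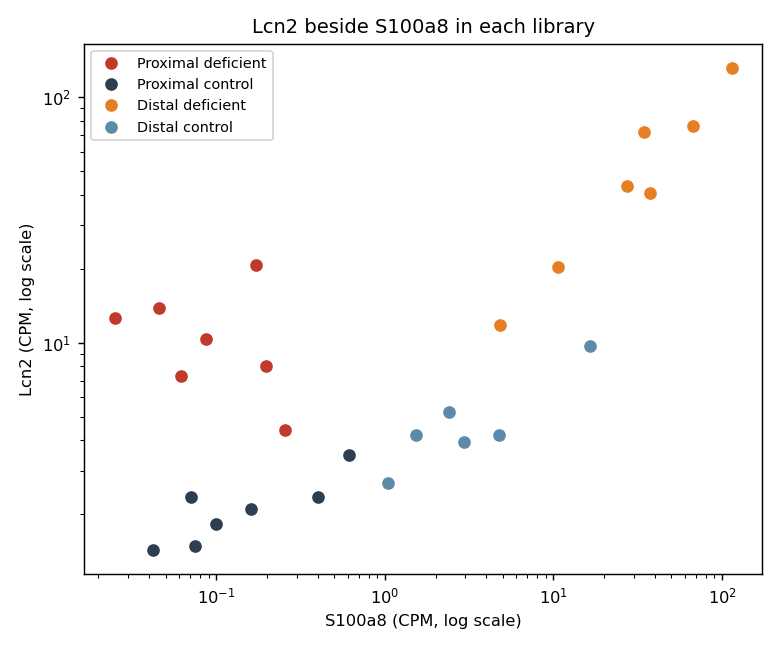
Lcn2 against S100a8 in each of the 27 libraries, both in CPM on log axes, coloured by group. Distal deficient libraries spread along both axes up to 131.2 CPM Lcn2 and 113.9 CPM S100a8, and proximal deficient libraries have 4.405 to 20.7 CPM Lcn2 and 0.0250 to 0.256 CPM S100a8.

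Reg3b and Reg3g encode C-type lectins that epithelial cells secrete into the mucus, where Reg3g kills Gram-positive bacteria. Both lie on chromosome 6, Reg3b at chr6:78370657-78373466 on the plus strand (ENSMUSG00000071356.7) and Reg3g at chr6:78466269-78468872 on the minus strand (ENSMUSG00000030017.2), with 92802 bases between them. In proximal colon Reg3b was at 659.2 to 2771 CPM (median 1640) in deficient mice and at 815.4 to 5896 CPM (median 2577) in control mice. In distal colon it was at 13.97 to 89.1 CPM (median 58.5) in deficient mice and at 23.5 to 484.7 CPM (median 110.7) in control mice. The groups overlapped in both segments. All 7 deficient libraries lay below the control mean in each, but so did most control libraries. The distal control mean was 203.1 CPM, beside the median of 110.7 CPM. The log2 fold change of Reg3b was -0.93 (SE 0.39, adjusted p 0.159) in proximal and -1.87 (SE 0.59, adjusted p 0.0838) in distal colon. Neither passed.

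Reg3g had a like spread. In proximal colon, levels were 212.3 to 805.7 CPM (median 530.3) in deficient mice, against 252.1 to 1280 CPM (median 871.8) in control mice. In distal colon it was at 13.8 to 46.1 CPM (median 36.7) in deficient mice, against 16.8 to 212 CPM (median 49.3) in control mice. Its log2 fold changes of -0.72 (SE 0.34, adjusted p 0.227) and -1.34 (SE 0.50, adjusted p 0.156) did not pass either. In proximal deficient colon, replicates 5, 6 and 7 held the 3 lowest levels of both lectins. In distal control colon, replicates 2 and 4 held the 2 highest of both, with 484.7 and 403.9 CPM Reg3b. In distal colon both lectins passed against control libraries without Cre (Reg3b -2.29, Reg3g -1.75) and with mice of 9 to 13 months (Reg3b -2.31, Reg3g -1.78), and Reg3b passed without control replicate 6 (-2.11, adjusted p 0.0252).

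Both promoters are given because the lectins moved together between libraries. Reg3b is from chr6:78370635-78370934 (plus strand) with a STAT match in capitals, and Reg3g from chr6:78468825-78469124 (minus strand) with an NF-kB match in capitals (RefSeq, GRCm38.p6).
Reg3b: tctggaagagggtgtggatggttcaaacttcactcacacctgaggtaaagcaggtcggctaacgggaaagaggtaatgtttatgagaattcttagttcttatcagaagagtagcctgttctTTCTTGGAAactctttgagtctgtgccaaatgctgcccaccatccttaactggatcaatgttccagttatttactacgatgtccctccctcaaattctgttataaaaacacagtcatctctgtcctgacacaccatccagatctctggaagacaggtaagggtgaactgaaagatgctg
Reg3g: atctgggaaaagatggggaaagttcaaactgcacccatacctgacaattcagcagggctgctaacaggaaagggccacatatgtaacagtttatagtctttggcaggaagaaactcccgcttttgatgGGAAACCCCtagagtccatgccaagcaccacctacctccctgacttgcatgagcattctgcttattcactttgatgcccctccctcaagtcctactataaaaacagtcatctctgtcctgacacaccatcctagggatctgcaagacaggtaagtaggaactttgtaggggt
The STAT match lies at -129 to -121 and the NF-kB match at -122 to -114. Of all promoters, 8.3% hold the STAT letters and 18.5% the NF-kB letters. Reg3b and Reg3g correlated in 3 of the 4 groups on the log2 scale. Pearson r was 0.919 in proximal deficient libraries (n = 7, exact permutation adjusted p = 0.0183; Spearman rho = 0.786, exact permutation adjusted p = 0.115) and 0.95 in proximal control libraries (n = 7, exact permutation adjusted p = 0.00952; rho = 0.893, exact permutation adjusted p = 0.0738). In distal deficient libraries r was 0.867 (n = 7, exact permutation adjusted p = 0.0518; rho = 0.571, exact permutation adjusted p = 0.267) and fell to 0.0354 without the 2 farthest libraries. In distal control libraries r was 0.979 (n = 6, exact permutation adjusted p = 0.0214; rho = 0.829, exact permutation adjusted p = 0.117). Without the 2 farthest libraries, r was 0.885 in proximal deficient, 0.928 in proximal control and 0.955 in distal control libraries.

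Oxidants are made by 3 members or with their help. Duox2 is the dual oxidase of the gut surface, Duoxa2 the factor that brings it out of the endoplasmic reticulum, and Nos2 the inducible nitric oxide synthase. Duox2 (ENSMUSG00000068452.8, chr2:122279247-122298449, minus strand) and Duoxa2 (ENSMUSG00000027225.7, chr2:122298900-122302885, plus strand) run away from each other with 450 bases between them. In proximal colon Duox2 was at 158.5 to 351.2 CPM (median 265.3) in deficient mice and at 269.1 to 558.5 CPM (median 393.9) in control mice. Duoxa2 was at 53.2 to 145 CPM (median 115.4) in deficient mice, against 106.1 to 237.8 CPM (median 160.6) in control mice. All 7 deficient libraries lay below the control mean for both genes, and the ranges overlapped. Their log2 fold changes were -0.59 (SE 0.20, adjusted p 0.0632) and -0.57 (SE 0.21, adjusted p 0.0924), which did not pass with edgeR. With DESeq2 their adjusted p-values were 0.0221 and 0.0411, and both also passed without control replicate 2 (0.0429 and 0.0484). Duox2 further passed without deficient replicate 3 (0.0402) or 4 (0.0383).

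In distal colon neither gene of the pair passed. Duox2 was at 576.5 to 1371 CPM in deficient mice, against 818.6 to 1268 CPM in control mice (log2 fold change -0.23, SE 0.19, adjusted p 0.588). Duoxa2 was at 210.5 to 544.9 CPM in deficient mice, against 230.4 to 417 CPM in control mice (log2 fold change 0.03, SE 0.23, adjusted p 0.966). The sign of the distal Duoxa2 value turned in several alternatives, as far as -0.16 with a replicate block. Within distal deficient libraries Duox2 and Duoxa2 correlated (r = 0.87, n = 7, exact permutation adjusted p = 0.0254; rho = 0.857, exact permutation adjusted p = 0.0952; 0.93 without the 2 farthest). The other groups gave r of 0.7 in proximal deficient, 0.64 in proximal control and 0.526 in distal control libraries, and none of these passed (exact permutation adjusted p 0.103, 0.139 and 0.309, n = 7, 7 and 6).

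The promoters of this divergent pair are shown together, Duox2 from chr2:122298178-122298477 (minus strand) and Duoxa2 from chr2:122298650-122298949 (plus strand), with RefSeq starts 673 bases apart (GRCm38.p6). Capitals mark the AP-1 match of Duoxa2 at -168 to -162, and none of the 6 motifs' letters were found in the Duox2 window.
Duox2: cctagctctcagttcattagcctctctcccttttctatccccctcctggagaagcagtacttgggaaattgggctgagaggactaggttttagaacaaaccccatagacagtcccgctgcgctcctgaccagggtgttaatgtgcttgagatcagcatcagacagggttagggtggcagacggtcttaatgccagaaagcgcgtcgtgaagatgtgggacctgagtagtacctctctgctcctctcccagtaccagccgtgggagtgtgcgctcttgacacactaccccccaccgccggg
Duoxa2: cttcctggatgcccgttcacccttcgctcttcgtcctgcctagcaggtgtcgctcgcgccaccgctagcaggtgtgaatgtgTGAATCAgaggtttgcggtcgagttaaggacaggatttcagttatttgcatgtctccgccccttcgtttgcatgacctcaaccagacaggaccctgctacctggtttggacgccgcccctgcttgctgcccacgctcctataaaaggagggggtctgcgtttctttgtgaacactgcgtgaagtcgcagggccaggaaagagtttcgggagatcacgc
The AP-1 letters stand in 7.81% of all promoters. Estimated counts of Duox2 were mostly given to 1 transcript, ENSMUST00000237546, and the share given to the other coding transcript, ENSMUST00000053734, differed by segment. It was 11.7% to 32.3% in distal deficient and 11.7% to 28.6% in distal control libraries. In proximal colon it reached 16.5% in deficient replicate 5 and was at most 3.02% in the 6 other deficient and 1.5% in the 7 control libraries. These shares come from kallisto's model and were not tested. The median of transcript length minus effective length, which that model uses, was 249 bases in every distal library and 214.6 to 245.6 bases in proximal libraries, so the segments' shares and this setting cannot be told apart.

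Nos2 (ENSMUSG00000020826.8, chr11:78920787-78960254, plus strand) makes nitric oxide in epithelium and macrophages. It was at 196.5 to 818.4 CPM (median 374.3) in distal deficient libraries, against 129.1 to 309.3 CPM (median 220.7) in distal control mice. Of the 7 distal deficient libraries, 5 lay above the highest control library, and the other two lay within the control range. The log2 fold change was 0.89 (SE 0.29, adjusted p 0.0882) with edgeR and passed with DESeq2 (adjusted p 0.0251) and without deficient replicate 2 (1.02, adjusted p 0.03). Distal macrophage and monocyte markers summed to 275.3 to 984.3 CPM in deficient mice, against 319.4 to 632.7 CPM in control libraries. Of the 12, all tested, 1 passed, the integrin chain Itgam, higher (1.13, SE 0.26, adjusted p 0.0180), and 12 had a log2 fold change above 0, with a median of 0.47. In proximal colon 2 of these 12 markers passed, both higher, and 11 had a log2 fold change above 0, with a median of 0.36. The part of these cells in the Nos2 values was not tested. In proximal colon Nos2 was at 15.6 to 46.4 CPM in deficient mice, against 19.9 to 56.3 CPM in control mice (log2 fold change -0.03, SE 0.28, adjusted p 0.968).

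**Figure D3:**
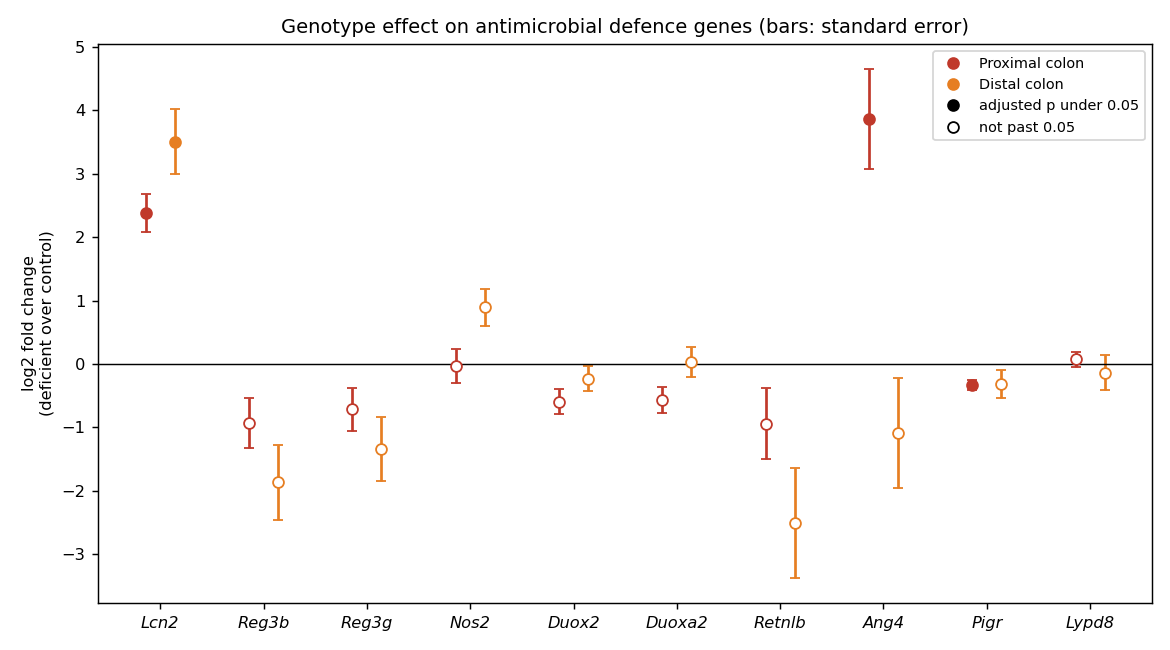
Log2 fold change (deficient over control) of the 10 genes in proximal and distal colon, with bars for the standard error and filled points for an adjusted p under 0.05. Filled points are Lcn2 in both segments and Ang4 and Pigr in proximal colon.

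Ang4 and Retnlb are made by secretory cells. Ang4 encodes angiogenin 4, a bactericidal ribonuclease of mouse Paneth and goblet cells (ENSMUSG00000060615.5, chr14:51763878-51773590, minus strand). In proximal colon it was at 29.4, 23.4, 68.6, 170, 830.4, 42.0 and 383 CPM in deficient replicates 1 to 7, against 8.04 to 36.6 CPM (median 11.6) in control mice. All 7 deficient libraries lay above the control mean and 5 lay above the highest control library, control replicate 7. The deficient libraries spanned a 35.5-fold range, with a coefficient of variation of 134.7%, beside 63.9% in control mice. The log2 fold change was 3.86 (SE 0.78, adjusted p 0.00325), or 14.6-fold.

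The size of the proximal Ang4 change depended on the libraries. It was 2.96 (adjusted p 0.00517) without deficient replicate 5, the library of 830.4 CPM. With mice labelled male only it was 2.12 (adjusted p 0.0112), and also without deficient replicate 3 it was 2.10 (adjusted p 0.0261). It stayed past the threshold in all 24 alternatives, at log2 2.10 to 4.42. The 3 deficient libraries low in Y-linked transcripts, replicates 3, 5 and 7, held 68.6, 830.4 and 383 CPM.

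Paneth cells are not a normal part of mouse colon, so their markers were examined beside Ang4. Of 12 Paneth markers the sum was 3.17 to 90.1 CPM (median 5.37) in proximal deficient libraries, against 3.75 to 20.4 CPM (median 8.56) in proximal control libraries. The highest sum was that of deficient replicate 3, while deficient replicate 5, with the highest Ang4, had 13.9 CPM. In proximal control libraries Defa21, Defa3, Defa26 and Defa5 were at 0 throughout, and none of the 12 was at 0 throughout in proximal deficient libraries. Of the 3 Paneth markers that could be tested, 1 passed, Mmp7, lower (-2.15, adjusted p 0.0104). Small-intestinal enterocyte markers were higher in proximal deficient libraries, without overlap of their sums. These were 1163 to 3526 CPM in proximal deficient libraries, against 470.0 to 802.7 CPM in proximal control libraries. Of 13 listed, 12 were tested and these 12 were all called higher. In distal colon, where Ang4 did not pass, 10 of these markers were tested, with 5 called higher and 0 lower. Of these 10, 6 had a log2 fold change above 0. Distal sums overlapped, at 321.2 to 824.6 CPM (median 533.9) in deficient mice, against 437.5 to 719.4 CPM (median 611.0) in control libraries. The part of either cell type in the Ang4 difference was not tested.

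In distal colon Ang4 did not pass. It was at 922.2, 494.6, 10.6, 997.6, 777.5, 330.9 and 80.2 CPM in deficient replicates 1 to 7, against 20.4, 1296, 860.5, 1659, 2208 and 590.3 CPM in control replicates 1 to 6. All 7 deficient libraries lay below the control mean, and control replicate 1 lay below 6 of the 7 deficient libraries. The log2 fold change was -1.09 (SE 0.87, adjusted p 0.569). The distal minus the proximal genotype effect was -4.44 (SE 1.57, adjusted p 0.258) with mouse as a block. It passed with DESeq2 (-4.46, adjusted p 0.0118) and without the block (-4.94, adjusted p 0.0335). Without the mice labelled female and deficient replicate 3 it was -2.34 (adjusted p 0.495).

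The Ang4 promoter (RefSeq, GRCm38.p6, chr14:51773541-51773840, minus strand) is given for the member of largest proximal change, with a STAT match at -192 to -184 and an AP-1 match at -122 to -116 in capitals.
Ang4: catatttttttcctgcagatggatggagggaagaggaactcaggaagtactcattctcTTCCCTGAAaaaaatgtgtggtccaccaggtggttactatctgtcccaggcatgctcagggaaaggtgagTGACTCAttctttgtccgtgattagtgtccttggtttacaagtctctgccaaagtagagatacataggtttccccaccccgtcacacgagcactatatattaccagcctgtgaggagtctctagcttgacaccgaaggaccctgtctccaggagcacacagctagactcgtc
Ang, Ang2, Ang5 and Ang6 are close relatives of Ang4. Ang2, Ang5 and Ang6 averaged at most 0.183 CPM in every group. Ang, which encodes the angiogenin of wider expression, averaged 11.7 ± 4.75 CPM in proximal deficient libraries, against 24.7 ± 4.39 CPM in proximal control libraries (SD, n = 7 each). Per length Ang averaged 27.8 ± 8.77 TPM beside 571.7 ± 735.5 TPM of Ang4 in proximal deficient libraries, and 58.1 ± 9.60 TPM beside 43.9 ± 30.3 TPM of Ang4 in proximal control libraries (SD, n = 7 each). Its log2 fold change was -1.06 (adjusted p 0.00327) in proximal and -1.30 (adjusted p 0.000164) in distal colon, opposite in sign to that of Ang4 in proximal colon.

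Retnlb (ENSMUSG00000022650.7, chr16:48816856-48818892, plus strand) encodes resistin-like molecule beta, a goblet cell product that kills Gram-negative bacteria and rises in type 2 immunity. In proximal colon, levels were 16.9 to 166.2 CPM (median 29.9) in deficient mice, against 9.05 to 158 CPM (median 106) in control mice. In distal colon it was at 239.6, 111.4, 11.9, 300.6, 261.1, 82.0 and 16.3 CPM in deficient replicates 1 to 7 and at 25.3, 1018, 547.5, 1281, 1935 and 192.9 CPM in control replicates 1 to 6. The groups overlapped in both segments, through deficient replicate 5 and control replicate 6 in proximal and through control replicates 1 and 6 in distal colon. The log2 fold changes were -0.94 (SE 0.56, adjusted p 0.361) in proximal and -2.50 (SE 0.87, adjusted p 0.12) in distal colon. The proximal value passed without deficient replicate 5 (-1.61, adjusted p 0.0457) and with mice labelled male only (-1.99, adjusted p 0.0162). The distal value passed with DESeq2 (adjusted p 0.0412) and against controls without Cre (-3.03, adjusted p 0.0321).

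Goblet cell markers were lower in the same libraries. Of 10 such markers, 5 passed in proximal colon, all lower, and the sum was 3278 to 7717 CPM in deficient mice, against 6844 to 10150 CPM in control libraries. In distal colon 1 of the 10 passed, lower, with sums of 13750 to 26920 CPM in deficient mice, against 25920 to 36370 CPM in control libraries. Their part in the Retnlb and Ang4 values was not tested.

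Pigr and Lypd8 act at the surface of the epithelium. Pigr encodes the polymeric immunoglobulin receptor, which carries IgA across the epithelium (ENSMUSG00000026417.13, chr1:130826684-130852249, plus strand). In proximal colon it was at 3055 to 3602 CPM (median 3344) in deficient mice and at 3588 to 4762 CPM (median 4367) in control mice. The ranges touched only at their edges, and 6 of the 7 deficient libraries lay below the lowest control library. The log2 fold change was -0.34 (SE 0.08, adjusted p 0.0074), a small change in a gene with a coefficient of variation of 6.56% in proximal deficient and 9.39% in proximal control libraries. It missed the threshold with mice of 9 to 13 months only (-0.31, adjusted p 0.0624). In distal colon Pigr was at 4523 to 8142 CPM in deficient mice, against 5308 to 11490 CPM in control mice (log2 fold change -0.32, SE 0.22, adjusted p 0.491). Plasma cells make the IgA that Pigr carries. Their markers summed to 4561 to 6874 CPM in proximal deficient libraries, against 2669 to 5109 CPM in proximal control libraries. Distal sums were 3893 to 11410 CPM in deficient mice, against 3165 to 8635 CPM in control libraries. Of 6 such markers, all tested, 0 passed in either segment. Their median log2 fold change was 0.32 in proximal and 0.20 in distal colon. The part of plasma cells in the Pigr values was not tested.

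Lypd8 encodes a glycosylphosphatidylinositol-anchored protein that binds flagellated bacteria in the lumen (ENSMUSG00000013643.13, chr11:58379043-58390728, plus strand). It was the most abundant of the 10 genes per length in every group. In proximal colon it was at 5832 to 8870 CPM (median 7208) in deficient mice, against 5689 to 8783 CPM (median 6766) in control mice, with a log2 fold change of 0.07 (SE 0.11, adjusted p 0.782). In distal colon it was at 9510 to 22300 CPM in deficient mice, against 11730 to 26930 CPM in control mice, with a log2 fold change of -0.14 (SE 0.28, adjusted p 0.846).

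Lypd8 libraries differed in which transcript the counts were given to. The transcript ENSMUST00000013787 has 7 exons, among them 1 of 65 bases at chr11:58379645-58379709 that ENSMUST00000108826, with 6 exons, lacks. The last exon is 461 bases long in the 7-exon and 652 bases in the 6-exon transcript. In proximal colon the 7-exon transcript took 94.9%, 95.9%, 95.5% and 96.4% of Lypd8 counts in deficient replicates 1, 3, 4 and 5, and 73.1%, 71.1% and 71.8% in deficient replicates 2, 6 and 7. The 7 proximal control libraries had 68.4% to 73.4%. Distal libraries of the same mice split likewise, with 88.2% to 90.4% in deficient replicates 1, 3, 4 and 5 and 74.1% to 76.7% in deficient replicates 2, 6 and 7, against 73.2% to 74.4% in control mice. The 4 mice of high share were thus the same in both segments, and 3 deficient mice lay near the controls. The split was seen after the values were known and was not tested.

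**Figure D4:**
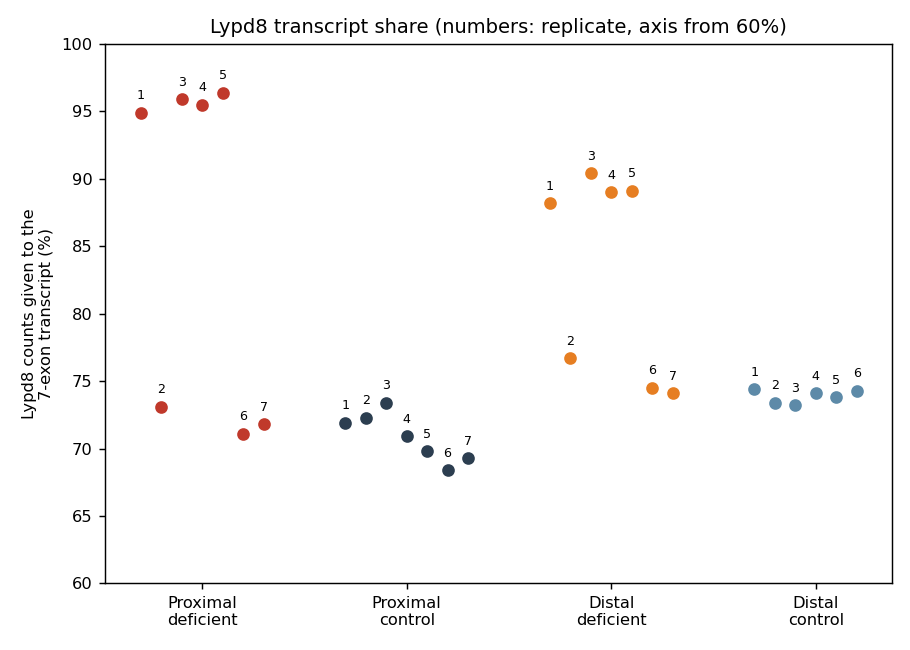
Percentage of Lypd8 estimated counts given to the 7-exon transcript in each library, numbered by replicate, on an axis that starts at 60%. Deficient replicates 1, 3, 4 and 5 stand at 94.9% to 96.4% in proximal and 88.2% to 90.4% in distal colon, above all other libraries of their segment.

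Levels of different genes were ordered by TPM, which scales counts by transcript length and library. In proximal colon of deficient mice Lypd8 averaged 11280 ± 1987 TPM, Reg3b 3812 ± 1768 TPM and Pigr 1265 ± 102.2 TPM (SD, n = 7 each). In proximal colon of control mice Lypd8 averaged 10440 ± 1329 TPM, Reg3b 7287 ± 4278 TPM and Reg3g 1933 ± 795.4 TPM (SD, n = 7 each). Lcn2 and Nos2 held the lowest ranks in both, Lcn2 at 22.3 ± 12.0 TPM in deficient mice, against 4.21 ± 1.44 TPM in control mice, and Nos2 at 10.1 ± 4.11 TPM in deficient mice, against 10.2 ± 4.70 TPM in control mice. Ang4 had rank 5 in deficient mice (571.7 ± 735.5 TPM) and rank 8 in control mice (43.9 ± 30.3 TPM). Most neighbours in these orders overlapped in their ranges. In distal colon Lypd8 averaged 21120 ± 5100 TPM in deficient mice, against 21320 ± 5468 TPM in control mice, apart from every other member. Reg3g was lowest in deficient mice (79.1 ± 26.9 TPM) and Lcn2 lowest in control mice (8.02 ± 3.45 TPM).

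The segments themselves also differed in defence genes. In deficient mice 8 of the 10 genes passed between segments, 6 higher and 2 lower in distal than in proximal colon. In control mice all 10 passed, 8 higher and 2 lower. Without the mice labelled female and deficient replicate 3, 9 passed in the 4 deficient mice left, with Ang4 and Retnlb added and Lcn2 lost. Over all genes tested, distal colon was called higher for 22.7% and lower for 22.4% in deficient mice, and higher for 21.5% and lower for 22.3% in control mice. Reg3b and Reg3g were the members lower in distal colon, in each of the 13 mice. The median ratio of distal to proximal Reg3b within a mouse was 0.0460 in deficient mice, against 0.0831 in control mice, and the log2 fold changes were -4.80 (SE 0.40, adjusted p 2.05e-05) in deficient and -4.15 (SE 0.78, adjusted p 0.00262) in control mice. For Reg3g the log2 fold changes were -3.65 (adjusted p 4.37e-05) in deficient and -3.45 (adjusted p 0.00198) in control mice.

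Nos2 was higher in distal colon of each of the 13 mice, with a median ratio of 11.2 in deficient mice, against 8.56 in control mice. Its log2 fold change was 3.84 (SE 0.30, adjusted p 1.42e-05) in deficient mice, against 3.05 (SE 0.29, adjusted p 6.89e-05) in control mice. Duox2 was also higher in distal colon in each mouse, with log2 fold changes of 1.74 (adjusted p 0.000215) in deficient mice, against 1.44 (adjusted p 0.000178) in control mice. Duoxa2 had 1.59 (adjusted p 0.000712) in deficient mice, against 1.03 (adjusted p 0.00247) in control mice, with 1 control mouse lower in distal colon. Lypd8 had 1.07 (adjusted p 0.00461) in deficient mice, against 1.27 (adjusted p 0.00305) in control mice, and Pigr 0.79 (adjusted p 0.00387) in deficient mice, against 0.76 (adjusted p 0.0119) in control mice. Lcn2 had 2.15 (SE 0.47, adjusted p 0.00468) in deficient mice, against 1.11 (SE 0.31, adjusted p 0.017) in control mice, and 6 of 7 deficient and 6 of 6 control mice had more in distal colon. Without the mice labelled female and deficient replicate 3 the Lcn2 value in deficient mice was 1.39 (adjusted p 0.0767).

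Ang4 and Retnlb passed between segments in control mice only, and the differences between the genotypes did not pass. In deficient mice Ang4 had a distal to proximal ratio of 0.155 to 31.3 (median 5.88), with 4 mice higher and 3 lower in distal colon, and a log2 fold change of 1.62 (SE 1.18, adjusted p 0.286). The 3 lower mice were replicates 3, 5 and 7, those low in Y-linked transcripts, with ratios of 0.155, 0.936 and 0.209, and without them the log2 fold change was 3.72 (adjusted p 0.00267). All control mice had male levels of these transcripts, so it cannot be told whether control mice low in them would show the same split. In control mice its ratio was 1.99 to 189.6 (median 110.2), higher in 6 of 6, and its log2 fold change was 6.07 (SE 0.92, adjusted p 0.000835), or 6.68 without control replicate 1. Retnlb had a log2 fold change of 1.36 (SE 0.75, adjusted p 0.161) in deficient mice, with 5 of 7 mice higher in distal colon and replicates 3 and 7 lower. It was 2.81 (adjusted p 0.00067) without replicates 3, 5 and 7 and 1.89 (adjusted p 0.0447) without replicate 7. In control mice it had 2.86 (SE 0.80, adjusted p 0.0174), with 5 of 6 higher. That control value was 3.45 without control replicate 1 and missed the threshold without control replicate 2, 4 or 5 (2.62 to 2.66, adjusted p 0.0517 to 0.0605). Effective lengths differed between the segments as given for Duox2, and all 10 control and the same 8 deficient calls held with a transcript length offset.

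**Figure D5:**
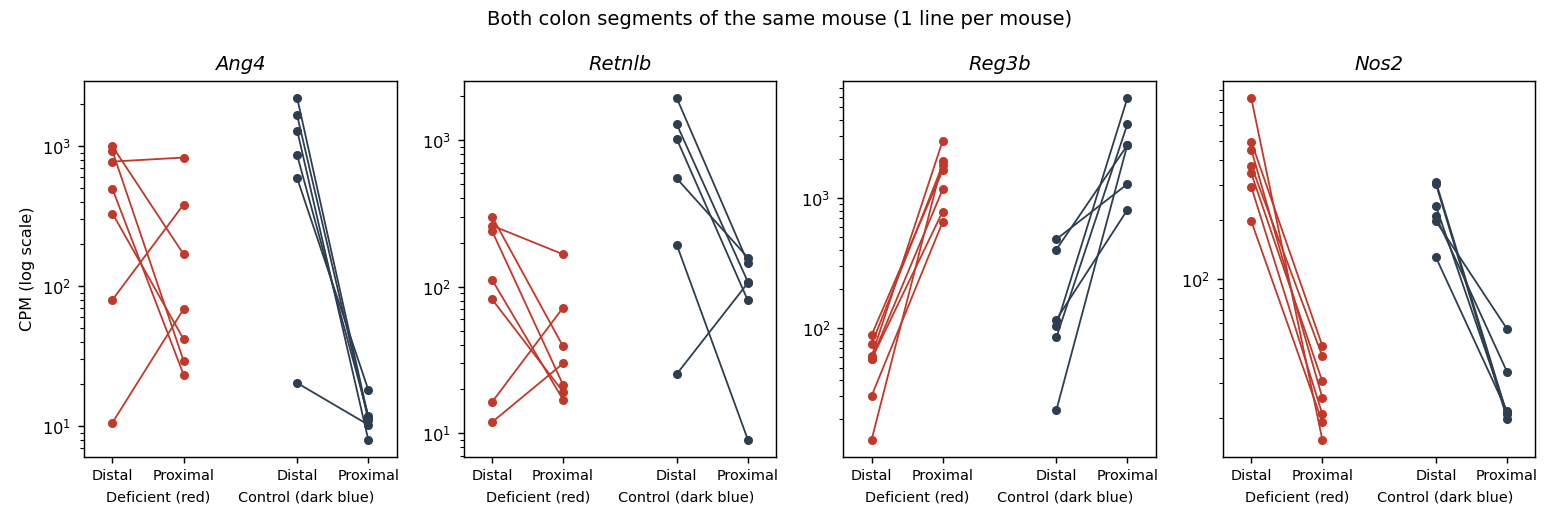
CPM (log scale) of Ang4, Retnlb, Reg3b and Nos2 in distal and proximal colon, with 1 line for each of 7 deficient and 6 control mice. Reg3b is lower and Nos2 higher in distal colon of every mouse, whereas Ang4 is higher in proximal colon of deficient replicates 3, 5 and 7, the mice low in Y-linked transcripts, and of no control mouse.

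Of the 10 genes, 0 passed the edgeR test of a genotype effect that differs between segments, beside 1.01% of all genes tested. At an unadjusted edgeR p under 0.05 there was 1, Ang4 (p 0.0126, rank 858 by p of 17595 genes tested). DESeq2 called the same 1, and it also called more of all genes than edgeR did (numbers given below). The median difference over the 10 genes was -0.08 on the log2 scale, beside 0.02 over all genes tested.

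Other genes of the same pathways were described by fixed lists. Of 33 other antimicrobial proteins, 27 were tested in proximal colon, of which 2 were higher and 3 lower, with a list median of 0.11. Defb1, an epithelial beta-defensin, averaged 1.37 ± 0.519 CPM in proximal deficient libraries, against 0.0376 ± 0.0398 CPM in proximal control libraries (SD, n = 7 each, log2 fold change 5.23, adjusted p 6.31e-06). The other one was Chp2, calcineurin B homologous protein 2, known as a partner of sodium-proton exchangers and not as an antimicrobial protein (1.48, adjusted p 2.69e-05), while Pla2g10, a secreted phospholipase, fell with -2.52 (adjusted p 3.03e-07) and Defb37 with -1.71 (adjusted p 0.00273). In distal colon 24 were tested, with 1 higher and 3 lower and a median of 0.32. Defb1 was again higher (3.38, adjusted p 0.0469), and Pla2g10 (-2.21, adjusted p 2.93e-05), the lectin Itln1 (-3.44, adjusted p 0.00847) and the phospholipase Pla2g5 (-0.46, adjusted p 0.0223) were lower.

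Among 20 other superoxide and nitric oxide enzymes, 0 were higher and 4 lower of 19 tested in proximal colon. These were Nox1, the colonic superoxide-producing oxidase (-1.03, adjusted p 0.0215), its activator Noxa1 (-0.53, adjusted p 0.00493), the Duox1 partner Duoxa1 (-0.79, adjusted p 0.0272) and Arg1, which competes with Nos2 for arginine (-1.55, adjusted p 0.00308). In distal colon Arg2, the mitochondrial arginase, was the 1 call of 20, higher by log2 2.01 (adjusted p 0.00336). It averaged 13.6 ± 7.34 CPM in distal deficient (n = 7) and 3.41 ± 1.18 CPM in distal control libraries (n = 6, SD).

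The cytokines Il17a and Il22, known inducers of Lcn2 and the Reg3 lectins, had low levels. Il17a averaged 1.18 ± 0.775 CPM in distal deficient libraries, against 0.476 ± 0.260 CPM in distal control libraries, and Il22 0.310 ± 0.157 CPM and 0.276 ± 0.158 CPM in the same groups. Of 24 genes of interleukin 17, interleukin 22 and STAT3 signalling tested in proximal colon, 0 were higher and 3 lower: Cebpd (-0.82, adjusted p 0.0102), Il18 (-0.66, adjusted p 0.0284) and the STAT3 target Socs3 (-1.04, adjusted p 0.0411). In distal colon 2 of 26 were higher, Il1b (2.04, adjusted p 0.00716) and Cebpb (0.48, adjusted p 0.00834), and 1 was lower, the receptor chain Il17rc (-0.92, adjusted p 0.00131), at 115.3 ± 18.6 CPM in distal deficient (n = 7) and 219.6 ± 46.7 CPM in distal control libraries (n = 6, SD).

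Of 22 epithelial alarm targets, 18 were tested in proximal colon, with 3 higher and 3 lower. Slc26a4, an anion exchanger, was higher (2.82, adjusted p 6.83e-07), and the tryptophan-degrading enzyme Ido1 (-3.40, adjusted p 0.000155), complement factor B Cfb (-0.68, adjusted p 0.00244) and Ceacam10 (-0.82, adjusted p 0.00448) were lower. In distal colon 6 of 21 were higher and 1 lower, with a list median of 0.69. Slc26a4 (2.49, adjusted p 0.000232), the chemokine Ccl20 (2.15, adjusted p 0.0136) and the neutrophil chemokine Cxcl2 (2.64, adjusted p 0.0153) were higher and Ido1 lower (-3.17, adjusted p 1.8e-05). Ccl20 averaged 97.3 ± 64.6 CPM in distal deficient libraries, against 22.1 ± 7.87 CPM in distal control libraries.

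Sensors of microbes moved in both directions. In proximal colon 1 of 22 was higher and 4 were lower, among them the receptors Tlr1 (-1.37, adjusted p 2.04e-05), Tlr4 (-0.89, adjusted p 0.00433) and Nod2 (-0.53, adjusted p 0.0277). In distal colon 3 were higher and 1 lower, with Tlr2 (1.15, adjusted p 0.00693), the NF-kB inhibitor and target Nfkbia (0.70, adjusted p 0.00626) and Nod2 (0.63, adjusted p 0.0423) higher and Tlr1 lower (-0.64, adjusted p 0.000351). Around IgA, 1 of 16 genes passed in proximal colon, Ccl28, which draws plasma cells to the gut (-0.47, adjusted p 0.00615), and 1 of 15 in distal colon, the plasma cell survival factor Tnfsf13 (-0.45, adjusted p 0.0159).

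Around iron, 1 of 11 genes was lower in proximal colon, the ferritin chain Fth1 (-0.64, adjusted p 0.00206). In distal colon 1 of 11 was higher, Mmp9, whose protein binds lipocalin 2 (2.64, adjusted p 0.00522), and 1 lower, the transferrin receptor Tfrc (-0.88, adjusted p 0.0412). Among angiogenin and resistin relatives 5 were tested in each segment. Rnase1 was higher in proximal colon (2.83, adjusted p 1.83e-05), and Rnase4 was lower in proximal (-1.03, adjusted p 5.39e-05) and distal colon (-1.16, adjusted p 0.00097). On the type 2 axis 3 of 14 genes were higher and 1 lower in proximal colon and 3 of 12 higher in distal colon, with the mast cell proteases Mcpt1 (2.58 in proximal, adjusted p 0.000217, and 2.87 in distal colon, adjusted p 0.00218) and Mcpt2 (2.59, adjusted p 0.00199, and 2.76, adjusted p 0.00593) among them.

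The genes most like 4 of the members were found over the 27 libraries by Pearson r of log2 CPM centred within each group, among 13386 named genes of at least 1 CPM on average, as a description. Lcn2 was most like Rab32 (r = 0.843), Krt90 (0.836) and S100a9 (0.816). Reg3g was most like Pdgfc (0.785), Dcp2 (0.734) and Daglb (0.7). Duox2 was most like Ceacam20 (0.894), Sema4a (0.888) and Ifnlr1 (0.881), and Ang4 was like Matk (0.883) and Rgs13 (0.875). These libraries share mice, depth and tissue composition, and the values carry no test.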

How the data were processed

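Per the submitters' processing notes, bcl2fastq 2.20.0.422, cutadapt 2.5 and kallisto 0.46.2 were used on GRCm38 (mm10), and edgeR was listed with no version. Estimated counts (kallisto) were deposited by the authors with TPM per transcript for each library, beside a log2 expression matrix per segment whose scaling was not given in those sources. All 10 genes are listed in both matrices. Estimated counts were summed per gene of GENCODE M21 and rounded, leaving out 0.902% to 1.27% of counts on unmatched transcripts. The deposited TPM were summed per gene.

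Genotypes were compared within each segment with edgeR 4.0.16 (R 4.3.3, quasi-likelihood, filterByExpr, TMM, Benjamini-Hochberg over all genes, threshold 0.05). Mouse was a block between segments, since both came from the same animal. CPM were scaled over all 27 libraries. Pairs of genes used log2(CPM + 1). DESeq2 1.42.0 and limma 3.58.1 served as alternatives. Procedures were tested on simulated counts in which every gene had the same dispersion and mice did not differ. Members such as Ang4 and Retnlb varied more than that setting, so the simulation says little about them. Totals per library limit precision most for low genes. Promoters are from RefSeq (GRCm38.p6), matched by symbol for 8 of 10 genes.

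Members and lists were chosen with earlier results of these data known. Named were all 10 members, Foxa1, Foxa2, up to 4 genes per list of smallest p past the threshold in either genotype comparison, and the 3 genes most like each of 4 members. Of the genes this rule takes, 1 is not reported here. S100a8, S100a9, Ly6g, Cxcr2, Itgam and the low relatives and cytokines given by level alone were added for context after their values were seen. Alternatives are RLE scaling, no filter, a length offset, DESeq2, a replicate block, single libraries left out, and subsets by sex label, Cre and age. The limma analysis of the deposited log2 values and the set without mice labelled female and deficient replicate 3 were chosen after seeing the data.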

Additional observations from a re-analysis of the deposited data

Results flagged for a closer look

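Within the 40 groups of libraries examined (10 genes in 4 groups), 5 held 1 library far from the others, each time the highest. For normally distributed values chance gives about 1 group in 20. CPM were not transformed for this rule, so the 5 groups cannot be read as an excess. Retnlb was at 166.2 CPM in proximal deficient replicate 5. Lcn2 was at 9.70 CPM in distal control replicate 6, the mouse with Cre and both Foxa1 alleles floxed, which also held the highest S100a8 of the distal controls (16.5 CPM). In proximal colon of that mouse Lcn2 was at 1.49 CPM, near the low end of the proximal controls (1.43 to 3.49 CPM). Nos2 was at 56.3 CPM in proximal control replicate 5. Ang4 was at 36.6 CPM in proximal control replicate 7, a mouse with no distal library. Pigr was at 11490 CPM in distal control replicate 1.

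The estimated genotype effects on Ang4 had opposite signs, with 7 of 7 deficient libraries below the control mean in distal and 7 of 7 above it in proximal colon. The distal effect did not pass (-1.09, SE 0.87, adjusted p 0.569), and distal control replicate 1 (20.4 CPM) lay below 6 of the 7 deficient libraries. The difference (distal minus proximal) was -4.44 on the log2 scale and did not pass the edgeR test with mouse as a block (adjusted p 0.258, and 0.0118 to 0.495 over its alternatives). It was -2.34 without the mice labelled female and deficient replicate 3.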

How the results depend on the processing

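Over the 5 comparisons, 50 values of single genes were recomputed in 910 alternatives, of which 852 kept direction and side of the threshold, 5 lost the call, 25 gained it and 28 changed sign. The changes of sign fell on 6 values, of which 0 were called. With DESeq2 the members called were 5 in proximal colon, 4 in distal colon and 1 in the difference between segments, beside 3, 1 and 0 as reported, and all genes called were 1504 in distal colon (973 as reported) and 529 in the difference (178). Against controls without Cre 4 members were called in distal colon, and with mice of 9 to 13 months 3. All genes called in those subsets are not given separately, so these counts have no background beside them. Leaving out libraries gave 3 to 5 members in proximal and 1 to 2 in distal colon, 569 (without the mice labelled female and deficient replicate 3) to 1007 genes in distal colon, and 102 to 225 genes in the difference with 1 mouse left out. Without the mice labelled female and deficient replicate 3, 70 genes were called in the difference and 4774 between segments in deficient mice (7445 as reported, and at most 7370 with any library left out).

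Deviations of same-numbered mice of the genotypes correlated at -0.157 to 0.339, over 0.1 in 4 of 13 pairs, so the numbers were not taken to pair the mice. With a replicate block 4 members were called in proximal colon, the added one being Duoxa2 (-0.60, adjusted p 0.01), and 1 in distal colon, beside 1696 and 684 of all genes. The block was the mouse in the comparisons of segments, and with no replicate block 1 member passed in the difference.

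The values that changed sign were these. Proximal Nos2 was 0.16 with mice labelled male, 0.24 with mice of 9 to 13 months and 0.24 without the mice labelled female and deficient replicate 3, and -0.20 to 0.20 with 1 library left out. Distal Duoxa2 was -0.16 with a replicate block, -0.0429 with mice labelled male, -0.03 without those labelled female and deficient replicate 3, -0.0274 with limma, and -0.13 to 0.12 with 1 library left out. Distal Lypd8 was 0.19 against controls without Cre and -0.2359 to 0.0187 with 1 library left out, and its difference between segments was 0.14 with controls without Cre. The difference between segments ranged over -0.66 to 0.26 for Reg3g and -0.0779 to 0.1934 for Pigr with 1 mouse left out, and Pigr was -0.10 without the mice labelled female and deficient replicate 3. The cause of these shifts was not tested. S100a8 in proximal colon and Il17a and Il22 averaged near or below 1 CPM, so their values rest on few counts.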
